A study of Mus musculus with 8 samples.

Results

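The 10 genes described here encode the transcription factors that hold mouse embryonic stem cells (mESCs) in the naive pluripotent state: Pou5f1, Sox2, Nanog, Klf2, Klf4, Klf5, Esrrb, Tfcp2l1, Tbx3 and Prdm14. They are 10 of 21938 protein-coding genes in the GENCODE vM21 annotation of mm10, and were listed by name for their known role. The study sequenced capped 5′ ends of nuclear RNA (CAGE-seq) in mESCs with and without the chromatin proteins PWWP2A and PWWP2B, to ask how their loss affects where transcription starts. The groups were E14, a wild-type mESC line with 3 libraries, and Pwwp2a/b double knockout (DKO) clones A1 and C7, made in E14 cells, with 2 and 3 libraries. Each knockout group is therefore 1 clone, both clones lack the same pair of proteins, and the labels give no treatment for any group. The replicates of each line had been merged by the authors into 1 set of tag clusters, runs of neighbouring transcription start sites (TSSs), so no value below has a replicate error and no test between lines could be made. The set for E14 held 32857 clusters, that for A1 33005 and that for C7 32870. A cluster was assigned to a factor gene if it lay on the gene's strand and its dominant TSS, the base with the most 5′ ends, fell between 500 bp upstream of the annotated gene start and the gene end. By this rule 74 clusters in E14, 73 in A1 and 74 in C7 belonged to the 10 genes, which together marked 75 sites.

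Naive mESCs are maintained by a network in which OCT4 (encoded by Pou5f1), SOX2 and NANOG bind many enhancers together, while KLF2, KLF4, KLF5, ESRRB, TFCP2L1 and TBX3 act downstream of leukaemia inhibitory factor and Wnt signals and stabilise the same genes. PRDM14 represses fibroblast growth factor signalling and DNA methylation in these cells. A CAGE cluster marks where RNA polymerase II transcripts carry a cap. Its interquantile width, the span between the quantiles 0.1 and 0.9 of its 5′ ends, separates sharp promoters, often with a TATA box, from the dispersed promoters typical of CpG islands.

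The bases around the starts of these promoters show the contrast between a sharp and a dispersed start, and are given first. They run 5′ to 3′ on the strand of the gene, end 9 bases after the dominant TSS of E14 and begin up to 70 bases before it, shortened so that no more than 30 annotated untranslated bases are included. Capitals mark the interquantile region in E14. All were read from RefSeq promoter windows on GRCm38.p6, except Tbx3, which was read from its GENCODE transcript.

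Pou5f1, chr17:35506038-35506067, plus strand: AAACCGTCCCTAGGTGAGCCGTCtttccac
Sox2, chr3:34649926-34650005, plus strand: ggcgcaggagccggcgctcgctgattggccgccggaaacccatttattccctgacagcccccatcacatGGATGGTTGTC
Nanog, chr6:122707574-122707603, plus strand: gccttgagccgttggccttcAGataggctg
Klf2, upstream cluster, chr8:72318893-72318972, plus strand: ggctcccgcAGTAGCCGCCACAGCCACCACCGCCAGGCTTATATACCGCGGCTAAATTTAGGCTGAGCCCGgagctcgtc
Klf2, RefSeq start, chr8:72319042-72319071, plus strand: tgggtgggccgggccacagCACAcacagtc
Klf4, both clusters, chr4:55532466-55532545, minus strand: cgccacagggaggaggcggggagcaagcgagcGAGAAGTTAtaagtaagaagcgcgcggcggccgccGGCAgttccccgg
Esrrb, start of Esrrb-202, chr12:86421574-86421653, plus strand: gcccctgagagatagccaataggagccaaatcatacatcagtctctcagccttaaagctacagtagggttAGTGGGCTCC
Tfcp2l1, chr1:118627877-118627956, plus strand: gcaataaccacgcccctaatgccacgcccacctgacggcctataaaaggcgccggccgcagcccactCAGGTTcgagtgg
Tbx3, chr5:119670998-119671027, plus strand: accgtccagagccgccgaGCAGACGCCCGG

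In these windows the Nanog start occupied 2 capital bases and the upstream Klf2 start 62. Of the 7 motifs searched on both strands of the 300-bp RefSeq windows (250 bases before to 50 after each start), TATAAA was found in 1 of the 10 windows that cover factor genes, that of Tfcp2l1, where it began 30 bases before the dominant TSS. Over all 32851 promoter windows 13.6% held TATAAA. Only these exact letters were searched. The printed run of the upstream Klf2 start holds the similar letters TATATA before the dominant TSS, which were not counted, so other TATA-like elements are not excluded. The GC box letters GGGCGG were in the windows of Klf2, Klf4, Pou5f1 and Sox2 (35.7% of all windows), and CCAAT in windows of Esrrb, Pou5f1 and Sox2 (37.4%). In Pou5f1 the CCAAT match lay on the opposite strand 38 bases before the dominant TSS and the GGGCGG match 71 bases before it, and in Sox2 an opposite-strand CCAAT began 47 bases before it, within the printed run. The Sox-like letters ACAAAG were found in the Sox2 window (18.7% of all windows) and the Klf-like letters GGGTGNGG in both Esrrb windows (16.6%). The octamer ATTTGCAT (1.74% of all windows) and the STAT-like TTCCNGGAA (1.15%) were in no window of these genes. The number of CpG dinucleotides per window ranged from 4 in Nanog to 40 in Klf4, against a median of 7 over all windows, with 32 in Klf2, 27 in Sox2, 21 in Tfcp2l1 and 11 at the first Pou5f1 start. Promoter windows were held for 7 of the 10 genes, Klf5, Tbx3 and Prdm14 being the others. The motif matches describe these letters only and no binding was measured here.

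All 10 genes had a cluster within 500 bp of an annotated transcript start in every line. Of all coding genes, 50.4% had one in E14, against 50.4% in clone A1 and 50.3% in clone C7. The widths of these start clusters differed widely among the factors. Taking for each gene its widest start cluster, the interquantile width in E14 ran from 2 bp in Nanog to 62 bp in Klf2, with a median of 16 bp over the 10 genes, against 32 bp over 11059 coding genes, whose interquartile range was 19 to 45 bp. Of the 10 widths, 4 were at most 10 bp (Nanog, Tfcp2l1, Klf5 and Klf4), and 13.7% of coding genes were this sharp. The widest cluster was chosen in each line separately, and for Pou5f1 and Sox2 it was another cluster in A1 and C7 than in E14. The median over the 10 genes was 17.5 bp in A1 and 21 bp in C7, and 33 bp over coding genes in both clones. This order depended on the measure: by the whole span of the cluster the median in E14 was 80 bp over the 10 genes and 57 bp over coding genes, the other way round. For the cluster nearest to an annotated start it was 9 bp against 28 bp, and over all start clusters 9 bp against 21 bp.

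**Figure D1:**
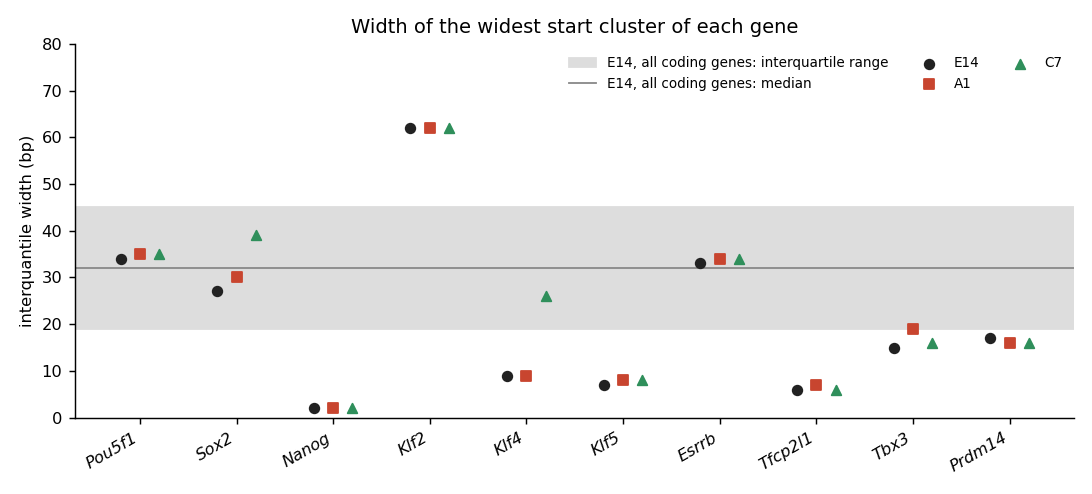
Interquantile width in bp (y axis) of the widest cluster within 500 bp of a transcript start, for each of the 10 genes (x axis) in E14, A1 and C7 (points, 1 merged set per line and no error bars). The widest cluster was chosen in each line separately, and for Pou5f1 and Sox2 it is another cluster in A1 and C7 than in E14. The grey band and line give the interquartile range, 19 to 45 bp, and the median, 32 bp, of 11059 coding genes in E14; Nanog lies at 2 bp in all 3 lines and Klf2 at 62 bp, and Klf4 moves from 9 bp in E14 and A1 to 26 bp in C7.

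The core trio used starts of different shape. Pou5f1, a POU homeodomain factor (chr17:35506018-35510772, plus strand), had its longest start cluster at 35505996 to 35506093, with the dominant TSS at 35506058 and a width of 31 bp in E14, A1 and C7. This base lay 40 bp inside the GENCODE start and 26 bp inside the RefSeq start. Sox2, an HMG-box partner of OCT4 with a single exon (chr3:34650405-34652461, plus strand), had its longest cluster 409 bp upstream of the GENCODE start, at 34649927 to 34650121, with the dominant TSS 1 bp from the RefSeq start. Further Sox2 clusters had dominant TSSs at 34650156, with a width of 27 bp in E14, and at 34650228, with 18 bp, so all 3 start clusters of Sox2 in E14 lay upstream of the annotated gene. The gene Sox2ot (chr3:34104270-34682619) covers Sox2 on the same strand. It held 14 clusters in E14 and A1 and 15 in C7, those of Sox2 among them, and 0 at its own starts. The nearest Sox2ot start upstream of the longest Sox2 start cluster lay 11492 bp from its dominant TSS. For the other Sox2 clusters, position and strand cannot tell which gene they belong to. Nanog, a homeodomain factor (chr6:122707489-122714633, plus strand), had a single start cluster of 57 bp in which 2 bases held the interquantile region, with the dominant TSS at 122707594 in E14, A1 and C7. Of coding genes, 0.814% had a narrower widest start cluster than Nanog, and the dominant TSS lay 26 bp downstream of the start of Nanog-201 and 105 bp downstream of Nanog-203. Nanog has pseudogene copies, and reads that match more than 1 place were discarded, so its clusters rest on the unique part of its reads. The copies Nanog-ps1 and Nanog-ps2 held no cluster in any line.

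Among the Krüppel-like zinc finger factors, Klf2 had the widest start cluster of the 10 genes in each line, and those of Klf5 and, in E14 and A1, of Klf4 were under 10 bp. Klf2 (chr8:72319033-72321656, plus strand) had 4 start clusters in each line. The widest of them, 62 bp in E14, A1 and C7, had its dominant TSS at 72318963, 70 bp upstream of the GENCODE start. A separate 4-bp start at 72319062 was the RefSeq start itself, and a further cluster at 72319096 to 72319104 lay in the coding sequence, with the dominant TSS in codon 7 of 354 in E14 and in codon 9 in A1 and C7. Klf4 (chr4:55527143-55532466, minus strand) had a 4-bp cluster with the dominant TSS at 55532475, again exactly the RefSeq start, and a second one 39 bp upstream of the GENCODE start, with a width of 9 bp in E14 and A1 and 26 bp in C7. Klf5 (chr14:99298691-99315036, plus strand) started 6 bp upstream of its annotated start, at 99298685 in every line, within a cluster of 68 bp whose interquantile region spanned 7 bp in E14 and 8 bp in A1 and C7.

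Among the other 4 factors, Tfcp2l1 started at its annotated start, and every start cluster of Esrrb lay far inside the gene. Esrrb, an orphan nuclear receptor (chr12:86361117-86521628, plus strand), has 5 annotated starts, and none of the 3 lines had a cluster within 500 bp of the first, that of Esrrb-204. The longest Esrrb start cluster, 112 bp, had the same dominant TSS, 86470116, in every line, 1 bp upstream of the start of Esrrb-206 and 108999 bp inside the gene, with a width of 33 bp in E14 and 34 bp in A1 and C7. An 11-bp cluster marked the start of Esrrb-202 and Esrrb-203 at 86421644, and its dominant TSS was on that exact base in E14 and C7 and 10 bp downstream in A1. Tbx3, a T-box repressor (chr5:119670669-119684724, plus strand), started at the first base of Tbx3-201, 119671018, which is 349 bp inside the gene, with widths of 15 bp in E14, 19 bp in A1 and 16 bp in C7. A pair of Tbx3 clusters with dominant TSSs at 119680227 and 119680270 flanked the start of Tbx3-205, in intron 6 of the reference transcript. Tfcp2l1, a CP2-family factor (chr1:118627945-118685168, plus strand), had 1 start cluster, with the dominant TSS 1 bp from the start of Tfcp2l1-201 and a width of 6 bp in E14, 7 bp in A1 and 6 bp in C7. Prdm14, a PR-domain zinc finger protein (chr1:13113457-13127163, minus strand), had a single cluster of 17 bp, wholly upstream of the annotated gene, with the dominant TSS 80 bp upstream of the start in E14, 78 bp in A1 and 75 bp in C7. Over the 10 genes, 13 of 29 annotated starts had an E14 dominant TSS within 50 bp and 25 had one within 500 bp. Some of these starts lie a few bases apart, so 1 cluster can serve several of them. The share over the starts of all coding genes was not computed.

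Internal clusters made up much of what these genes carried. In E14, 27 of the 74 clusters (36.5%) were classed as promoter, 33 (44.6%) as exonic and 14 (18.9%) as intronic, promoter meaning a dominant TSS within 500 bp of any annotated start on the strand. Over the 27177 E14 clusters in these 3 classes, 73.1% were promoter, 15.7% exonic and 11.2% intronic. With a window of 1000 bp, 36 of the 74 in E14 were promoter, and 37 of 74 in C7. The share over the series was not computed at that window. In A1 the counts were 27, 33 and 13, and in C7 29, 32 and 13. All genes but Prdm14 had an exonic or intronic cluster in E14, 9 of 10, where 21.0% of the 11059 coding genes with a start cluster had one. The median number over those coding genes was 0. The level of expression, which the merged cluster set does not carry, can differ between these genes and the rest, and its part in this difference was not tested.

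**Figure D2:**
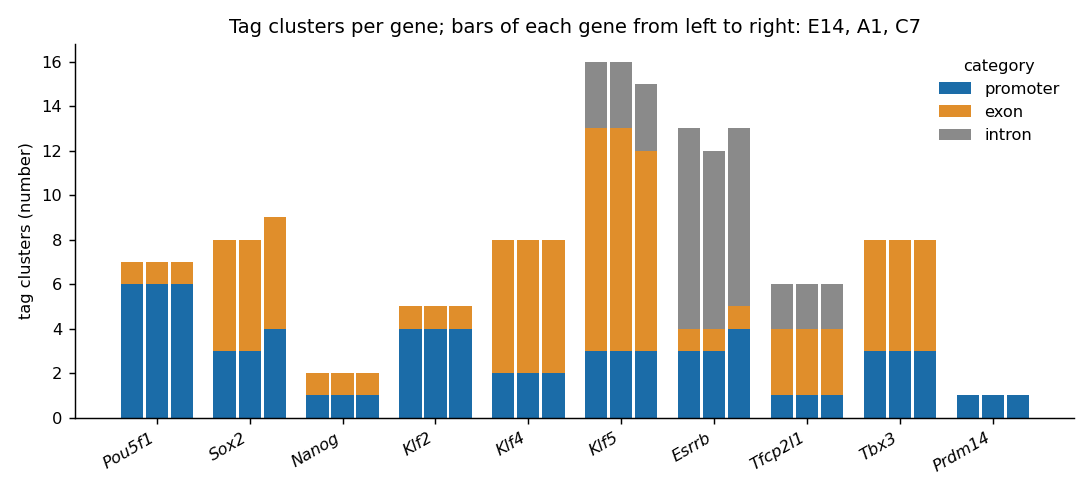
Number of tag clusters (y axis) of each of the 10 genes (x axis), with 3 bars per gene for E14, A1 and C7 and colours for promoter, exon and intron. Klf5 has the most, 16 in E14 and A1 and 15 in C7, Prdm14 has 1 promoter cluster in each line, and the bars of a gene differ by at most 1 cluster between lines.

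Klf5 carried 13 internal clusters in E14, more than 99.4% of those coding genes, and Esrrb carried 10. Klf4 had 6, Sox2, Tfcp2l1 and Tbx3 had 5 each, and Pou5f1, Nanog and Klf2 had 1 each. Per kb of gene, Sox2 had the highest density, 2.43 internal clusters, all of them also inside Sox2ot. Esrrb, spread over its long introns, had 0.0623. Codons given here are those of the E14 dominant TSS. In Klf5, 3 clusters lay in exon 2 in the coding sequence, at codons 82, 196 and 252 of 446, 3 in intron 3, and 7 in the 3′ UTR. In Klf4 all 6 were in exon 5, the last one, which encodes the C-terminal zinc fingers: 3 in the coding sequence, at codons 439, 468 and 482 of 483, and 3 in the 3′ UTR. In Sox2 1 was at codon 271 of 319 and 4 were in the 3′ UTR. Nanog had its one internal cluster in the 3′ UTR, with the dominant TSS at 122713810 in E14 and 6321 bp from the gene start. Of the Esrrb clusters 9 were intronic in E14, with one in intron 2 reaching a width of 43 bp, and 1 was in the 3′ UTR. The 2 intronic clusters of Tfcp2l1 were in introns 2 and 5, and its other 3 in the 3′ UTR.

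The coding exons of Pou5f1 held clusters that the 500-bp window classed as promoter. In E14, 4 clusters lay in exon 1 of the coding sequence, at codons 7, 19, 50 and 122 of 352, between 102 and 446 bp from the start. A cluster of 34 bp in exon 2, at codon 162, counted as promoter because the short transcripts Pou5f1-202, Pou5f1-203, Pou5f1-204 and Pou5f1-206 start from 381 to 397 bp upstream of it. It is also the widest of the start clusters of Pou5f1 in E14 by 3 bp. The only cluster of Pou5f1 classed as exonic was at codon 202. Pou5f1 therefore had 6 clusters inside its coding sequence in every line.

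**Figure D3:**
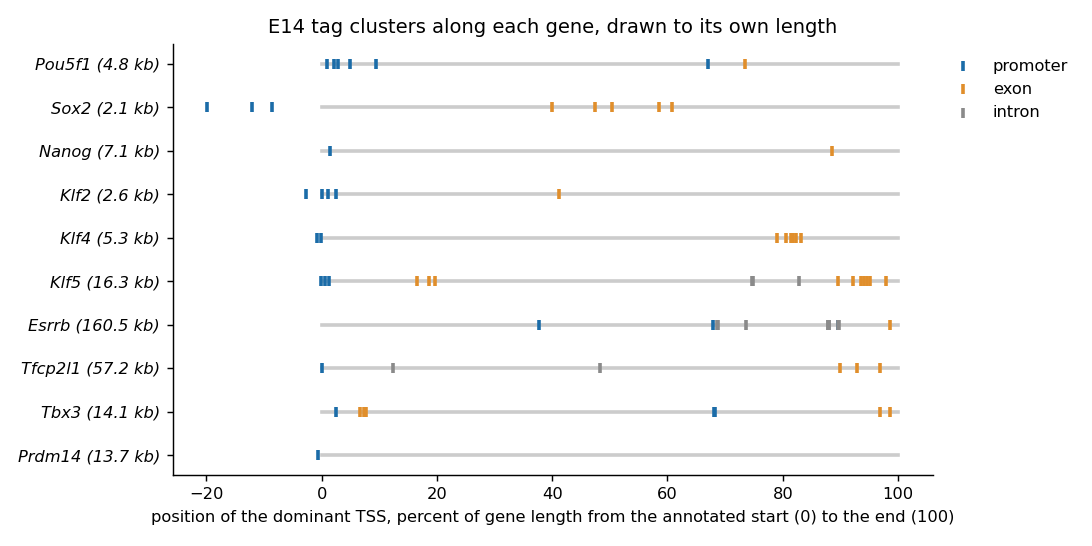
Dominant TSSs of the E14 clusters of each gene (rows, with gene length in kb), placed along the gene in percent of its length from the annotated start at 0 to the end at 100 (x axis), coloured by category. The exonic clusters of Klf4 and Tfcp2l1 and 7 of the 10 of Klf5 stand towards the 3′ end, 3 of the 5 of Tbx3 stand near the 5′ end, the start clusters of Sox2 lie left of 0, and no Esrrb cluster lies near its first annotated start.

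The exonic clusters of these genes stood mainly in last exons. Of the 33 in E14, 25 (75.8%) were in the last exon of the reference transcript (the one with the longest coding sequence), against 1246 of 4148 exonic clusters in coding genes. By region, 21 (63.6%) were in the 3′ UTR against 20.9%, 9 (27.3%) in the coding sequence against 66.8%, and 3 (9.09%, all in Tbx3) in the 5′ UTR against 1.98%. Clusters of 1 gene share its RNA, and Klf4, Klf5 and the single-exon gene Sox2 gave 18 of the 25 between them. The same shares in A1 were 75.8% and in C7 78.1% for the last exon, and 63.6% and 65.6% for the 3′ UTR.

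The bases at these internal starts differed from those at the promoters, as they did over the whole series. Most promoter initiation in mammals uses a pyrimidine followed by a purine, the purine being the first base of the RNA. Of the 33 exonic clusters in E14, 6 (18.2%) had this pair at the dominant TSS, and 10.5% of 4245 exonic clusters of the series with readable bases had it. In A1 3 of 33 (9.09%) had it, below the 10.4% of the series, and in C7 5 of 32 (15.6%), above the 10.4% of the series, so the genes did not stand on one side of the series in every line. The most frequent pair among the 33 was GA, 8 times. Among the 27 promoter clusters, bases could be read for 20, of which 14 had the pair, CA being the most frequent with 6. Because 7 were not covered, this share was not set against the series. The dominant starts of Nanog, Tbx3, Klf4 (55532475) and Klf2 (72319062) were all CA, those of Pou5f1 (35506058) and Klf2 (72318963) were CG, and those of Sox2 and Tfcp2l1 were GG. To show such starts, the widest exonic cluster in E14 of a gene is given as 30 bases for 6 of the genes, 15 before the dominant TSS and 14 after it, with the E14 interquantile region in capitals, from GENCODE transcripts on GRCm38.

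Pou5f1, codon 202, chr17:35509492-35509521, plus strand: tggagAAGTGGGTGGAGgaagccgacaaca
Sox2, 3′ UTR, chr3:34651364-34651393, plus strand: tcgcacatgtgagggCTGGACTGCGAACTG
Nanog, 3′ UTR, chr6:122713795-122713824, plus strand: agccatctcaccAGCCCctggtttattttt
Klf4, codon 468, chr4:55528159-55528188, minus strand: gaagtgtgacaggGCCTTTTCCAGGTCGGa
Klf5, codon 82, chr14:99301382-99301411, plus strand: caagatgtgaaatggAGAAGTATCTGACCC
Tbx3, 3′ UTR, chr5:119684261-119684290, plus strand: tttctgatggaggggGTGGGATCGGGAGta

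Over the widest exonic clusters of the 9 genes that had one, none had a pyrimidine before a purine (0 of 9), and 6 had G as the base before the dominant TSS. Of 4245 exonic clusters of the series, 10.5% had the pyrimidine and purine. The most frequent pairs there were GA, GG and GT, with 1111, 768 and 728. The 9 were picked by width, and over all 33 the share with the pyrimidine and purine was 18.2%. Exonic clusters were also narrower than start clusters. The median interquantile width over the 33 was 3 bp, equal to the 3 bp over the 4260 exonic clusters of the series, and it was 9 bp over the 27 promoter clusters of these genes, against 20 bp over 19872 promoter clusters. The 14 intronic clusters had a median of 5.5 bp, and 3 bp over the series.

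**Figure D4:**
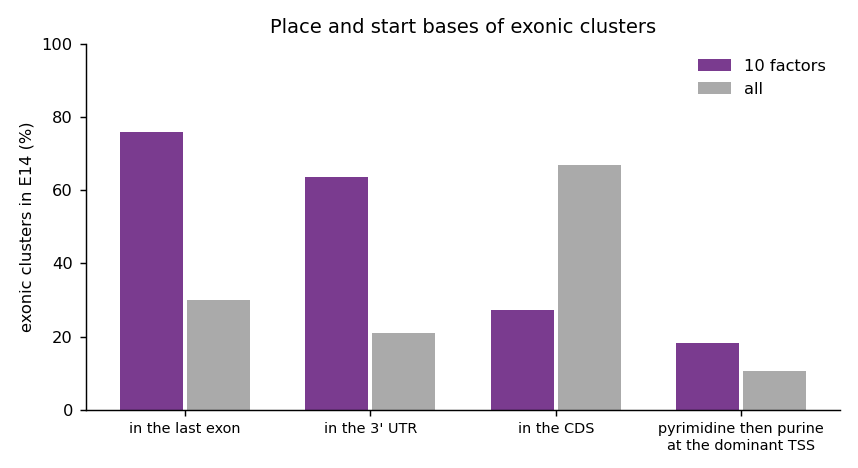
Percent of exonic clusters in E14 (y axis) that lay in the last exon, in the 3′ UTR or in the coding sequence of the reference transcript, or had a pyrimidine followed by a purine at the dominant TSS. Bars compare the 33 clusters of the 10 factors with the 4148 of coding genes (the 4245 with readable bases for the last pair); the last exon holds 25 of the 33 (75.8%) against 1246 of 4148.

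Antisense clusters were found in 5 of the 10 genes, in the same 5 and at the same number, 12, in E14, A1 and C7. In E14, 31.9% of coding genes with a start cluster had one in the same interval. Esrrb had 5, Tbx3 3, Pou5f1 2, and Sox2 and Klf5 1 each, and Nanog, Klf2, Klf4, Tfcp2l1 and Prdm14 had none. The widest was divergent from the longest Esrrb start cluster. Its dominant TSS lay 95 bp upstream of the sense one in E14 and A1 (86470021) and 114 bp upstream in C7 (86470002). Its width was 48 bp in E14 and A1 and 62 bp in C7. Divergent antisense starts also lay upstream of Pou5f1, 144 bp from its start at 35506058, and of Klf5, 203 bp from its own in E14 and A1 and 196 bp in C7. In Tbx3, antisense clusters lay 437 and 178 bp upstream of the sense start in E14. Another lay upstream of the longest Sox2 start cluster, 234 bp from its dominant TSS in E14 and A1 and 229 bp in C7. That cluster fell outside the counted interval of Sox2. One of the 3 in Tbx3 lay within 500 bp of the start of Tbx3os1, and the one near the Pou5f1 end within 500 bp of the start of Gm19553.

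The cluster sets of the 3 lines held nearly the same sites in these genes. Of the 75 sites, 72 were found in all 3 lines, so 3 were not, where 2.63% of 33324 sites over the genome were not. The 3 were small: a 1-bp cluster at codon 145 of Sox2 (34650849) was found in C7 alone, a 3-bp cluster at codon 196 of Klf5 (99301739) was missing in C7, and an 8-bp cluster in intron 3 of Esrrb (86504904 to 86504911) was missing in A1. Of the 72 common sites, 71 had identical outer bounds in all lines and 1 had not, near the rate over the genome, where 1.38% of common sites had not. Over the genome, 31968 of 32415 common sites had identical bounds. Whether the bounds had been set jointly over the lines was not tested, so this agreement cannot be read as a result about the cells. The clusters were compared as given, and whether a missing cluster lay just under the limit for calling was not tested.

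The dominant base of the start clusters was compared next, taking the longest because no signal ranks them. At the longest start cluster of each gene the dominant TSS was the same in E14, A1 and C7 in 8 of 10 genes, and it differed in 2, a share near that over 10996 coding genes, of which 25.6% differed. The 2 were Sox2, at 34649996 in E14 as in A1 but at 34649997 in C7, and Prdm14, at 13127243, 13127241 and 13127238. Over all 72 common sites the dominant TSS was at another base than in E14 in 20 sites in A1 (27.8%, 23.7% over the genome). In C7 it was so in 20 sites as well (27.8%, 21.1% over the genome). At 9 sites both clones differed from E14, but not always by moving to the same base, as in Prdm14. The share of such sites over the genome was not computed. Among the 27 promoter sites 5 had moved in A1 (18.5%, genome 21.7%) and 9 in C7 (33.3%, genome 19.2%), and among the 45 exonic and intronic sites 15 in A1 (33.3%, genome 27.0%) and 11 in C7 (24.4%, genome 23.4%). As over the genome, moves were more frequent where the interquantile region filled the cluster. Where the interquantile region filled the whole cluster in every line, 26 of 43 sites differed in at least 1 line (60.5%, genome 45.0%), and at the other sites 5 of 29 did (17.2%, genome 23.6%). The largest moves were 15 bp at codon 82 of Klf5 in A1 and 13 bp in intron 2 of Esrrb in C7. Both clones moved by 10 bp at codon 202 of Pou5f1, from 35509507 to 35509497, and both by 8 bp at the coding Klf2 cluster, from 72319096 to 72319104.

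The interquantile width differed from E14 at 18 of the 72 sites in A1 (genome 30.9%) and at 16 in C7 (genome 29.2%). It was larger in both clones at 11 sites (15.3%, genome 12.5%) and smaller in both at 1 (1.39%, genome 3.99%), that of Prdm14, by 1 bp. At codon 50 of Pou5f1 the width was 15 bp in E14 and 35 bp in A1 and C7, with the dominant TSS at 35506249 in all 3 lines. The longest Sox2 start cluster measured 18 bp in E14, 30 bp in A1 and 39 bp in C7. In intron 5 of Tfcp2l1 the region was 1 bp in E14 and 21 bp in both clones. The 3′ UTR cluster of Nanog measured 5, 12 and 13 bp in E14, A1 and C7. These 4 sites gained 7 bp or more in both clones, and the other 7 of the 11 (in Klf4, Klf5, Esrrb and Tbx3) gained at most 4 bp. The longest start clusters of Nanog, Klf2 and Pou5f1 kept 2, 62 and 31 bp in all 3 lines. At other sites a single clone differed: the Sox2 cluster at 34650228 had 18 bp in E14 and C7 and 1 bp in A1, and the upstream Klf4 cluster had 9 bp in E14 and A1 and 26 bp in C7. The depth of the merged sets could differ between lines and its part in these widths was not tested.

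**Figure D5:**
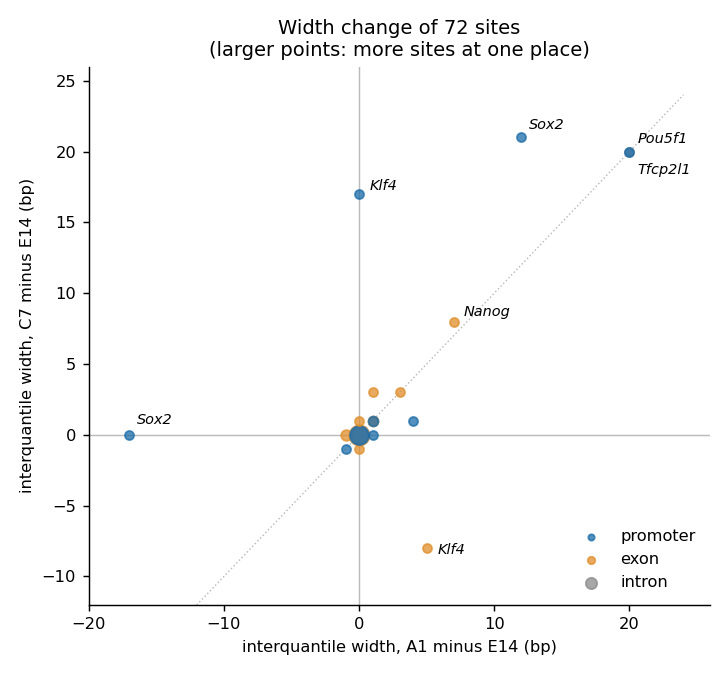
Interquantile width in A1 minus E14 (x axis, bp) against C7 minus E14 (y axis, bp) for the 72 sites found in all lines, coloured by category, with larger points where more sites coincide. Of these, 51 lie at 0 on both axes, 11 in the upper right (Pou5f1 and Tfcp2l1 coincide at 20 bp on both axes), and 1 exonic Klf4 site in the lower right, at 5 bp in A1 and -8 bp in C7.

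The wider network and the relatives of these factors were read from lists. All 35 genes of the pluripotency network list (receptors and signal carriers of the same pathways, cofactors and known targets) had a cluster at an annotated start in every line. Their widest start cluster had a median of 31 bp in E14, with the narrowest at 3 bp in Id3 and Socs3 and at 4 bp in Id1, all immediate targets of the BMP and LIF signals, and with Nr0b1 also at 4 bp. The widest were Utf1 with 112 bp, Gdf3 with 78 bp and Stat3, the carrier of the LIF signal, with 76 bp. Of 43 paralogs in the POU, SOX, KLF, ESRR, CP2, T-box and PRDM families, 28 had a start cluster in E14 and A1 and 29 in C7, the difference being a 1-bp cluster of Sox3 in C7. Among the Krüppel-like paralogs Klf1, Klf14 and Klf17 had none in any line, nor did Pou2f2, Pou3f1, Pou3f2, Pou3f3 and Pou3f4 among the POU genes or Tbx1, Tbx2, Tbx4, Tbx5 and Tbx20 among the T-box genes. Presence of a cluster in a culture of many cells does not tell fewer cells with the transcript from less transcript per cell.

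The label of embryonic stem cells was checked on marker lists. All 14 stem cell markers, the 10 factors among them, had a start cluster in every line. Of all coding genes, 50.4% had one in E14. None of 5 mesoderm markers (T, Mixl1, Eomes, Mesp1 and Tbx6) had one. Start clusters were found for 2 of 4 primed epiblast markers (Otx2 and Dnmt3b), 4 of 7 primitive endoderm markers (Sox17, Sox7, Dab2 and Pdgfra, with Gata4, Gata6 and Foxa2 lacking), 2 of 5 neural, 1 of 5 trophoblast, 3 of 5 fibroblast and 2 of 5 two-cell-like markers, and these counts were the same in E14, A1 and C7. Of the deleted genes, Pwwp2a had 1 start cluster in each line and Pwwp2b none in any line, E14 included. Positions of starts alone do not check the knockout, since the deleted part of each gene was not compared with them here.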

How the data were processed

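CAGE-seq of nuclear RNA was made from 3 E14, 2 DKO A1 and 3 DKO C7 libraries. The authors aligned reads to mm10 and retained those with a unique match. They pooled the replicates of a line, applied power-law normalization to the 5′ ends and built clusters with CAGEr. The submitters' processing notes name STAR 2.4.2a, SAMtools 1.3 and bedtools 2.17.0. The deposited values used are positions (cluster bounds, dominant TSS and interquantile blocks), and every deposited score is 0. Depth behind a cluster is therefore unknown, and counts, normalized signals and intervals are not given.

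Clusters were assigned to genes of GENCODE vM21 (GRCm38, the assembly of mm10), classed as promoter (500 bp), exon, intron or intergenic in that order, and joined between lines by at least 1 bp of overlap on the strand, with Python 3.11.15 and NumPy 2.4.6 (figures: Matplotlib 3.10.9). The functions were tested on simulated clusters. No test was run, since each line is 1 merged set. RefSeq and GENCODE bases were equal at all 6345 starts that both covered. All 10 genes are named, and list genes by presence, with the 3 widest and 3 narrowest network genes (3, 3 and 4 bp, the last shared). The genes and lists were chosen with earlier results of these data known. Alternatives in windows, overlap and width are given in the closing section.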

Additional observations from a re-analysis of the deposited data

Results flagged for a closer look

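At 1 of the 72 sites found in all lines the interquantile width moved in opposite directions in the 2 knockout clones. In exon 5 of Klf4, at codon 468, the cluster at 55528160 to 55528180 measured 16 bp in E14, 21 bp in A1 and 8 bp in C7. The width changed by 5 bp in A1 and by -8 bp in C7, while the outer bounds were equal in all 3 lines and the dominant TSS was 55528173 for E14 as for A1 but 55528174 for C7. The difference between the clones was not tested, because each is 1 merged set.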

How the results depend on the processing

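No paired analysis was possible because the replicates of each line had been merged before the clusters were deposited, and leaving out a replicate was not possible for the same reason. With a promoter window of 100 bp the promoter clusters of the 10 genes fell to 17 in each line, and the share over the series at that window was not computed. The median promoter width over the 10 genes was 80 bp in each line by the whole cluster, 9 bp in each line over all start clusters, and 9, 7.5 and 9.5 bp in E14, A1 and C7 for the cluster nearest to an annotated start, a choice added after the data had been seen. Dominant TSSs that moved by more than 5 bp numbered 6 in A1 and 5 in C7, and those at promoter clusters 5 in A1 and 9 in C7. Widths that differed by more than 5 bp numbered 5 in A1 and 6 in C7. Shares over the genome at the limit of 5 bp were not computed, so these counts cannot be called high or low. The other 59 recomputed totals stayed within 1.5 times their value, among them the number of clusters under upstream limits of 0 and 1000 bp, the number shared between lines under a reciprocal overlap of 50%, and the counts of the lists. Of the counts of single genes 108 stayed within 1.5 times and 12 did not, 5 of them with an upstream limit of 0 bp and 7 with a minimum width of 3 bp. The 7 were those of Nanog and Klf4 in every line and of Klf5 in E14. With that minimum width the clusters in E14 fell from 8 to 4 in Klf4 and from 16 to 10 in Klf5. The lack of counts limits every comparison: a cluster of few reads and one of many weigh the same.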
